A study of Mus musculus with 5 samples.

Results

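C1q-low monocytes were 67 of the 1743 cells captured from the aortic arch of 2 pools of atherosclerotic mice. A cell was taken when mitochondrial genes gave at most 25% of its molecules and when, per 10000 molecules of that cell, it held at least 30 of Lyz2, under 30 of C1qa, C1qb and C1qc together, and at least 10 of Ly6c2, Plac8, Chil3 and Ccr2 together. It also had to hold under 10 of the lipid-laden macrophage genes Trem2, Gpnmb, Spp1 and Fabp5 together and under 10 of the B cell genes Cd79a and Cd79b together. Of the cells taken, 41 came from the pool labelled wild-type and 26 from the pool labelled Saa3-/-. They are set against 333 C1q-high cells, 207 and 126 in the same order, which met the mitochondrial, Lyz2 and Cd79 limits and held at least 30 of C1q per 10000 molecules. No limit on the lipid-laden genes was set for the C1q-high cells, and 28 and 35 of them reached 10 of those genes per 10000. Because the cells were chosen by measured values of these genes, no difference between the monocytes and other cells was tested.

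Both pools came from female mice labelled as 12 weeks old and called littermates. The wild-type mice were C57BL/6J and the others C57BL/6N-Saa3tm1.1(KOMP)Vlcg/MbpMmucd, a targeted allele of the acute-phase gene Saa3. All were given an AAV8 vector with hAAT, a liver promoter, once into the peritoneum, and Western diet for 18 weeks. Live CD45+ cells were sorted, so the cells had passed a gate for leukocytes, and both pools were captured with sample tags. The labels give no number of mice per pool, and the tag of each genotype is known only from the names of the deposited tables.

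Each genotype is 1 pool, so nothing below is a test of genotype, and all intervals are 95% intervals that cover counting error only. The 2 tables shared 0 cell barcodes. Within the mitochondrial limit they held 833 and 823 cells. Saa3 went against the labels over all cells but not within the C1q-high cells. Over all those cells it stood at 148 CPM (molecules per 1000000 molecules) in the pool labelled wild-type and 242 CPM in the pool labelled Saa3-/-, where 799 of 1268 molecules lay in 1 cell and 325 in a second. In the C1q-high cells it stood at 343 and 28.2 CPM, with 887 and 31 molecules, the order the labels give. The C1q-low monocytes labelled wild-type held 40 Saa3 molecules, 23 of which lay in 1 cell, and those labelled Saa3-/- held 2. These were 95.4 CPM (68.1 to 129.9) and 13.6 CPM (1.65 to 49.2), beside 25.5 and 21.7 CPM in the cells of each pool with at least 10 molecules of Cd3d, Cd3e and Cd3g per 10000, called T cells below.

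Monocytes leave the bone marrow in a classical form, high in Ly6C and in the chemokine receptor CCR2, which lets them enter inflamed vessel walls. Under control of the transcription factor NR4A1 some become non-classical monocytes, low in Ly6C and CCR2, which patrol the inner face of vessels. Classical cells that stay in tissue can gain MHC class II and turn into dendritic-type cells or macrophages, and in atherosclerosis they feed the macrophage pool of the plaque. C1q, APOE and selenoprotein P are typical products of the settled macrophage.

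The promoter stretches of Ly6c2, H2-Aa and H2-Eb1 are shown first, because Ly6c2 and the MHC class II genes divided the 67 cells into the ranges used below. Each run is the 160 bases before the RefSeq start site on GRCm38.p6, 5′ to 3′ on the gene's strand. Capitals mark GAGGAAGT, a purine-rich run of the kind the myeloid factor PU.1 binds, in Ly6c2, and CTGATTGG, the Y box of MHC class II promoters, in both H2 genes. The motifs were picked after the sequences had been read, and both strands were searched.
Ly6c2: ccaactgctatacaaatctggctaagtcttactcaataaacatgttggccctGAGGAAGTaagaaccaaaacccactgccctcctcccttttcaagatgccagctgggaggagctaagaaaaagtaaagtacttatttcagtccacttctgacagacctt
H2-Aa: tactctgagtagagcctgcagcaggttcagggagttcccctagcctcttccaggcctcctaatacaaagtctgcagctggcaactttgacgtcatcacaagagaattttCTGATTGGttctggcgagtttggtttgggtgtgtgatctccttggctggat
H2-Eb1: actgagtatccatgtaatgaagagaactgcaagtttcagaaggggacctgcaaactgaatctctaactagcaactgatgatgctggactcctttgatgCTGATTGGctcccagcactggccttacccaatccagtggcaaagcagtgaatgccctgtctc
The Ly6c2 stretch lies on chromosome 15 at chr15:75111972-75112131 (minus strand, the first of 2 start sites in the table) and its motif begins 108 bases before the start. H2-Aa lies at chr17:34287824-34287983 on the minus strand with the Y box 51 bases before the start, and H2-Eb1 at chr17:34305707-34305866 on the plus strand with the Y box 62 bases before it. Of 32851 mouse promoter windows of the 250 bases before a start site, 1258 (3.83%) held the Y box and 802 (2.44%) held GAGGAAGT. A match is only a match of letters. The promoter set held no window for C1qa, Fabp5, Cd79b or H2-Ab1, so these were not searched. Among the other genes of the rule, the Y box was also found in Plac8, 94 bases before its first start site, and in Spp1, 49 bases before. GAGGAAGT was also found in C1qc, 195 bases before, and in Spp1, 113 bases before.

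The 4 chosen genes did not mark the same cells. Ly6c2, which encodes a GPI-anchored Ly6C protein, gave 298 molecules in 29 of the 41 wild-type-labelled cells and 168 in 15 of the 26 others. Plac8, a small cysteine-rich protein of myeloid cells, was found in 32 and 24 cells, with 376 and 298 molecules. Chil3, a chitinase-like secreted protein of classical monocytes, was found in only 18 and 11 cells, with 331 and 95 molecules. Ccr2 was found in 35 and 15 cells, with 483 and 97 molecules.

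Plac8 carried the choice most often, and Ccr2 admitted a set of its own. Plac8 by itself reached 10 per 10000 in 21 of 41 and 22 of 26 cells. Ccr2 was the only gene to reach it in 8 and 3 cells, and all 11 of these were high in MHC class II. Per 10000 molecules the sum of the 4 genes ran from 10.2 over a median of 25.9 to 182 in the pool labelled wild-type and from 11.02 over 30.6 to 113.6 in the pool labelled Saa3-/-. The nearest cells left out for this sum alone stood at 9.37 and 8.78, and 17 and 18 cells failed on it alone.

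Lyz2 ran from 37.1 over a median of 170.2 to 357 per 10000 in the pool labelled wild-type and from 33.8 over 126.7 to 330.1 in the pool labelled Saa3-/-. The C1q sum had medians of 3.89 and 3.69 and reached 11.05 and 26.1, while the nearest cells left out for C1q alone held 35.2 and 35.3. The monocytes thus lay well inside the C1q limit in the first pool and came close to it in the second. Lyz2, Ly6c2 and Chil3 share 15.4%, 14.4% and 26.9% of their 50-base stretches with other genes, so part of their molecules could belong to those. For Lyz2 this is Lyz1 alone, for Chil3 2 genes and for Ly6c2 266 genes, of which Ly6c1 shares most.

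The monocytes were 14.5% (10.6 to 19.2) of the Lyz2-high cells in the pool labelled wild-type, 41 of 282, and 13.7% (9.14 to 19.4), 26 of 190, in the pool labelled Saa3-/-. Of all cells within the mitochondrial limit they were 4.92% (3.55 to 6.62) and 3.16% (2.07 to 4.59). Both pairs of intervals overlap, which does not show that the shares are alike. The cells of the pool labelled wild-type were deeper, with a median of 7320 molecules (2716 to 31848) against 5626 (2037 to 9366), and the C1q-high cells deeper still, with medians of 9928 and 6935. Shares of cells with a molecule therefore depend on depth. With each cell thinned to 2000 molecules, Ly6c2 was found in 39.0% and 53.8% of monocytes, 2.96% and 1.63% of C1q-high cells and 10.7% and 13.8% of T cells (median 4705 and 3906 molecules), some of which make Ly6C.

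The cells spread widely in MHC class II. These genes encode the surface molecules that show peptides to CD4 T cells. The sum of H2-Ab1, H2-Aa and H2-Eb1 ran from 3.03 over a median of 58.1 to 492 per 10000 molecules in the pool labelled wild-type and from 4.40 over 19.5 to 424 in the pool labelled Saa3-/-. No cell lay between 25.8 and 38.6 in the first pool or between 27.7 and 71.2 in the second. In the first pool 4 cells lay from 38.6 to 69.1, and the next stood at 183.8. Below a limit of 30 lay 18 of the 41 wild-type-labelled cells, or 43.9% (28.5 to 60.3), and 18 of the 26 others, or 69.2% (48.2 to 85.7). These are ranges of a score, not cell types, and 1 cell per pool lay within 20% of the limit.

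How the ranges compare between the pools depends on what they are a share of. Cells low in MHC class II were 2.16% (1.29 to 3.39) of all cells in the pool labelled wild-type and 2.19% (1.30 to 3.43) in the pool labelled Saa3-/-. Those high in MHC class II were 2.76% (1.76 to 4.11), 23 cells, and 0.972% (0.421 to 1.91), 8 cells. Of the Lyz2-high cells the lower range was 6.38% (3.83 to 9.90) and 9.47% (5.71 to 14.6), and the upper 8.16% (5.24 to 12.0) and 4.21% (1.84 to 8.13). Each of these 4 pairs of intervals overlaps, that of the upper range among all cells only from 1.76 to 1.91. Overlap does not show that shares are alike. Cells of the upper range were also the deeper ones, with medians of 11938 and 6524 molecules against 5983 and 5072, and the part of depth in this was not tested.

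**Figure D1:**
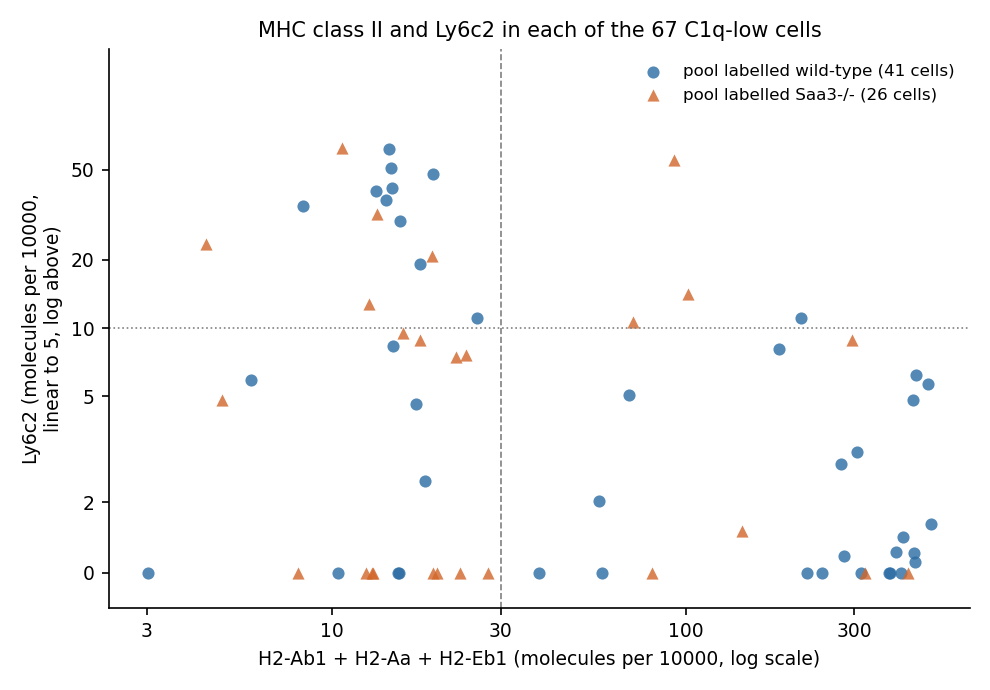
Summed MHC class II (H2-Ab1, H2-Aa and H2-Eb1, log axis) against Ly6c2 (linear to 5, then log) in each of the 67 cells, both per 10000 molecules of the cell, with dashed and dotted lines at the limits of 30 and 10. The cells low in MHC class II spread from 0 to 62 of Ly6c2, and of the 31 cells high in MHC class II 4 reach 10 of Ly6c2.

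Among the cells low in MHC class II, those with Ly6c2 and those without it carried different monocyte genes. In this range 10 cells of the pool labelled wild-type and 5 of the pool labelled Saa3-/- held at least 10 of Ly6c2 per 10000, 4 and 8 held none, and 4 and 5 lay between. Summed over the list of classical genes, the level was 15290.5 and 14812 CPM in the cells with at least 10 of Ly6c2 and 8813 and 9606 CPM in those with none. Summed over the list of non-classical genes the order turned: 3682 and 2231 CPM in the former and 13312 and 12699.6 CPM in the latter. The summed non-classical level ran from 14.8 to 97.7 and from 17.6 to 28.7 per 10000 in single cells with Ly6c2, and from 29.1 to 266.6 and from 49.4 to 192.8 in those without, so the ranges overlapped in the pool labelled wild-type and not in the other.

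Ace, the angiotensin-converting enzyme of non-classical monocytes, was found in every cell of the range without Ly6c2. The 4 wild-type-labelled cells held 1, 4, 5 and 8 Ace molecules and the 8 cells of the pool labelled Saa3-/- held 1, 3, 3, 4, 5, 6, 7 and 10. In the cells with Ly6c2, 7 of 10 and 4 of 5 held none. As levels these were 1109 and 1149 CPM without Ly6c2 against 166 and 97.0 CPM with it. The cell of the pool labelled wild-type with 1 Ace molecule also held 28 molecules of Chil3 and had the lowest non-classical sum of the 4.

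Further genes of the non-classical list followed the same order. Nr4a1, the orphan nuclear receptor these cells need, stood at 3205 and 3182 CPM without Ly6c2 and 1078 and 582 CPM with it. Treml4, a receptor of the same cells, gave 5 and 14 molecules without Ly6c2 and 2 and 0 with it. Adgre4, an adhesion G-protein-coupled receptor, gave 17 and 20 against 6 and 2. Cd300e, an activating receptor, gave 12 and 11 against 1 and 0, and Cd36, the scavenger receptor for oxidised lipid, 25 and 19 against 1 and 1. Itgal, the integrin chain of LFA-1, stood at 924 and 766 CPM against 348 and 356 CPM. Pglyrp1, a peptidoglycan-binding protein, stood at 766 against 97.0 CPM in the pool labelled Saa3-/- but at 185 against 365 CPM in the pool labelled wild-type. In the latter pool the cells with Ly6c2 included 1 cell with 74 S100a8 and 90 S100a9 molecules, described with the neutrophil markers below. Neutrophil markers there summed to 3566 CPM with Ly6c2 and 308 CPM without.

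Ccr2, like Ly6c2 a selecting gene and so only described, gave 65 and 17 molecules in the cells with Ly6c2 and 0 and 1 in those without. Hp, which encodes haptoglobin, stood at 1012 and 679 CPM with Ly6c2 and 123 and 265 CPM without. In the pool labelled wild-type 15 Hp molecules lay in the S100a8-rich cell with Ly6c2. In the pool labelled Saa3-/- 7 lay in 1 cell, most of those without Ly6c2. Fn1, fibronectin, and Vcan, versican, also rested in part on single cells. Fn1 gave 10 molecules in the 4 cells without Ly6c2 of the pool labelled wild-type and 0 in the 8 of the other. Of these 10, 8 lay in 1 cell, the one with 1 Ace molecule and 28 of Chil3. Of the 45 Vcan molecules of the pool labelled Saa3-/-, 37 lay in 1 cell. Thbs1, thrombospondin 1, gave 178 molecules in the wild-type-labelled cells of the lower range, 135 of them in the 4 with Ly6c2 between 0 and 10, and 47 in the others.

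**Figure D2:**
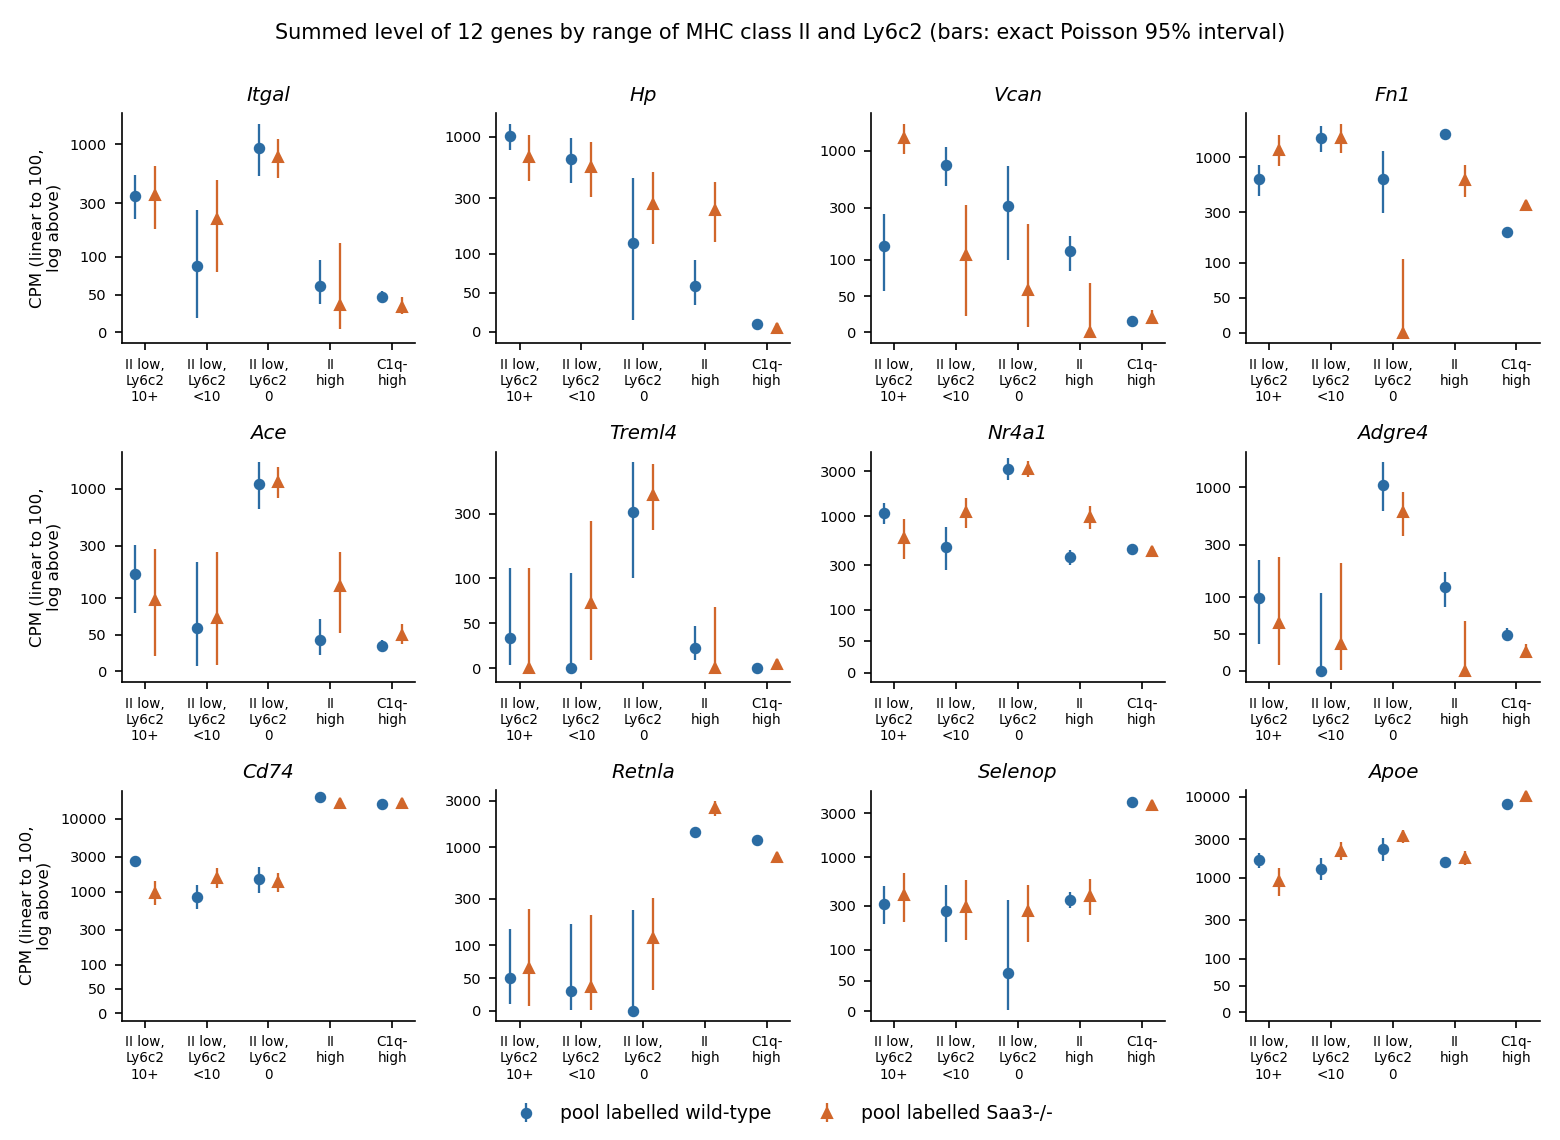
Summed level in CPM (linear to 100, then log) of 12 genes in the cells low in MHC class II with Ly6c2 of at least 10 per 10000, above 0 and under 10, or 0, in the cells high in MHC class II, and in the C1q-high cells. Circles are the pool labelled wild-type, triangles the pool labelled Saa3-/-, and bars exact Poisson 95% intervals. Ace and Nr4a1 peak in the cells with 0 of Ly6c2 in both pools, Cd74 and Retnla are high in the MHC class II high and the C1q-high cells, and Selenop and Apoe only in the C1q-high cells.

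Over all genes, 1387 had at least 20 molecules in both MHC class II ranges together in each pool, the 3 genes that set the range and the selecting genes left out. Of these, 56 (4.04%) were at least 2-fold higher in the lower range in both pools and 22 (1.59%) at least 2-fold lower. From the non-classical list 7 of 11 genes compared were higher and 0 lower, with median log2 ratios of 1.68 and 1.90 beside 0.13 and 0.11 for all genes. From the classical list 4 of 17 were higher, Vcan, Thbs1 and Trem1 among them, with medians of 1.12 and 0.47. S100a8 and S100a9 were among the 56, but their molecules lay almost wholly in 1 cell per pool, described with the neutrophil markers below.

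The cells high in MHC class II carried the rest of the class II pathway and genes of dendritic-type cells. Cd74, the invariant chain that guards the peptide groove, stood at 19739.6 and 16258 CPM there and 1892 and 1279 CPM in the lower range. Ciita, the master activator of the class II genes, gave 25 and 8 molecules in the upper range and 0 in the lower range of both pools. H2-DMb1, a chain of the peptide-loading protein, gave 135 of 136 and 29 of 33 molecules in the upper range, although 22.7% of its stretches are shared with H2-DMb2. Cd209a, a lectin of monocyte-derived dendritic cells, gave 25 and 56 molecules there and 0 in the lower range, with 48 of the 56 in 2 cells.

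Retnla, which encodes the secreted protein RELM-alpha, stood at 1447 and 2511 CPM in the upper range against 36.2 and 75.9 CPM in the lower. In the pool labelled Saa3-/- 135 of its 144 molecules over both ranges lay in 1 cell, and in the pool labelled wild-type 308 of 451 lay in 2. Clec10a, Fcrls, Tmem176a, Tmem176b, Lpl and Ecm1 complete the 10 genes with the largest differences in this direction. Single cells of this range also held defining genes of other types: 24 molecules of Siglech, a plasmacytoid dendritic cell receptor, lay in 1 cell and 16 of Xcr1, of cross-presenting dendritic cells, in 1 cell, both in the pool labelled wild-type. Over all 67 cells the dendritic cell factor Zbtb46 gave 3 molecules in the first pool and 1 in the second, and Fscn1 gave 1 and 0. Because 8 of the 23 and 3 of the 8 cells of the upper range entered through Ccr2 alone, it is described by its genes and given no name of its own.

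Against the C1q-high cells, the monocytes carried more of the genes of blood monocytes and far less of those of settled macrophages. Of 4239 genes with at least 50 molecules over the 2 sets in each pool, 87 (2.05%) were at least 2-fold higher in the monocytes of both pools and 175 (4.13%) at least 2-fold lower, and 14 passed this limit in opposite directions. The higher genes belonged mainly to the cells low in MHC class II. Of the 87, 79 were also called with those cells alone and 20 with the cells high in MHC class II alone. Of the 175 lower genes, 140 and 112 were called in the same order. The median log2 ratio over all genes was 0.07 and 0.04. Of the classical list 10 of 16 genes compared were higher and 0 lower, with medians of 2.04 and 2.43. List medians here and between the pools cover all members with at least 20 molecules, more than the members compared. Of the non-classical list 4 of 15 were higher, with medians of 0.03 and 1.32.

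Hp led the genes that were higher. It gave 103 molecules in the monocytes of the pool labelled wild-type and 58 in those of the pool labelled Saa3-/-, at 246 and 395 CPM, against 9.68 and 4.55 CPM in the C1q-high cells. The log2 ratios were 4.64 (4.02 to 5.36) and 6.31 (5.13 to 8.12). Hp was spread over 23 and 16 cells. After thinning, Hp was found in 36.6% and 42.3% of monocytes and in 0.763% and 0.599% of T cells.

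Proteins of the matrix and of adhesion were also higher. Vcan had log2 ratios of 3.56 and 3.92, with the 1-cell share named above. Fn1 differed between pools in size, at 1454 against 193 CPM in the pool labelled wild-type and 756 against 349.7 CPM in the pool labelled Saa3-/-, log2 ratios of 2.91 (2.74 to 3.09) and 1.12 (0.79 to 1.42). In the pool labelled wild-type the richest cells held 147, 102 and 69 Fn1 molecules, and all of these were high in MHC class II. The intervals do not cover this spread between cells. Thbs1 stood at 2.17 and 2.44. Of the list of adhesion genes 7 of 16 were higher and 1 lower, Pecam1, with medians of 1.08 and 1.12. Besides Vcan, Fn1 and Emilin2, these included the integrin chains Itgal (1.59 and 3.18), Itgb2 (1.18 and 1.04), the partner of Itgal, and Itga4 (1.08 and 1.68), which binds VCAM1 on activated endothelium.

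Further genes named by the size of their ratio had varied roles. Ifitm6, an interferon-induced membrane protein of monocytes, had log2 ratios of 2.94 and 4.25, Trem1, which amplifies inflammatory signals, 2.24 and 2.43, and Fgr, a Src-family kinase, 1.88 and 2.76. Ms4a4c (2.06 and 3.51) and Sirpb1c (2.04 and 3.46) were higher too, though Sirpb1c shares 46.1% of its stretches with 2 other genes. Gsr, glutathione reductase, stood at 2.82 and 2.71, the lactate exporter Slc16a3 at 2.40 and 2.28, the aspartic protease Napsa at 2.25 and 2.62, and the receptor Gpr35 at 1.98 and 2.01.

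Among S100 genes 5 of 8 were higher. S100a4, S100a6 and S100a11, calcium-binding proteins of motile cells, had log2 ratios of 1.17 and 1.83, 1.27 and 1.54, and 1.51 and 1.58, and were found in 37 to 39 of 41 and 23 to 25 of 26 cells. S100a8 and S100a9, the neutrophil and monocyte alarmin, are in the count only through single cells: 74 of 77 and 71 of 75 S100a8 molecules lay in 1 cell per pool, and without the 2 highest cells for each gene S100a9 stood at -0.58 and -2.28. From the glycolysis and hypoxia list 4 of 17 genes were higher and 0 lower, Slc16a3, the glucose transporter Slc2a1 (1.22 and 1.34), the enzyme Pgk1 (1.48 and 1.09) and the hypoxia factor Hif1a (1.46 and 1.20), with list medians of 0.95 and 0.53. From 21 oxidative phosphorylation genes compared 0 passed in either direction.

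Of the non-classical genes, Ace (log2 ratios 1.57 and 2.80), Itgal, Adgre4 (1.57 and 2.62) and Ear2 (3.87 and 1.91) were higher in both pools. Nr4a1 stood at 0.41 in the pool labelled wild-type and 1.74 in the pool labelled Saa3-/-. Ear2, an eosinophil-type ribonuclease, shares 41.5% of its stretches with 5 genes. In the pool labelled wild-type it lay mostly in cells high in MHC class II, with 198 of 214 molecules, and in the pool labelled Saa3-/- wholly in the lower range, with 31 of 31.

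**Figure D3:**
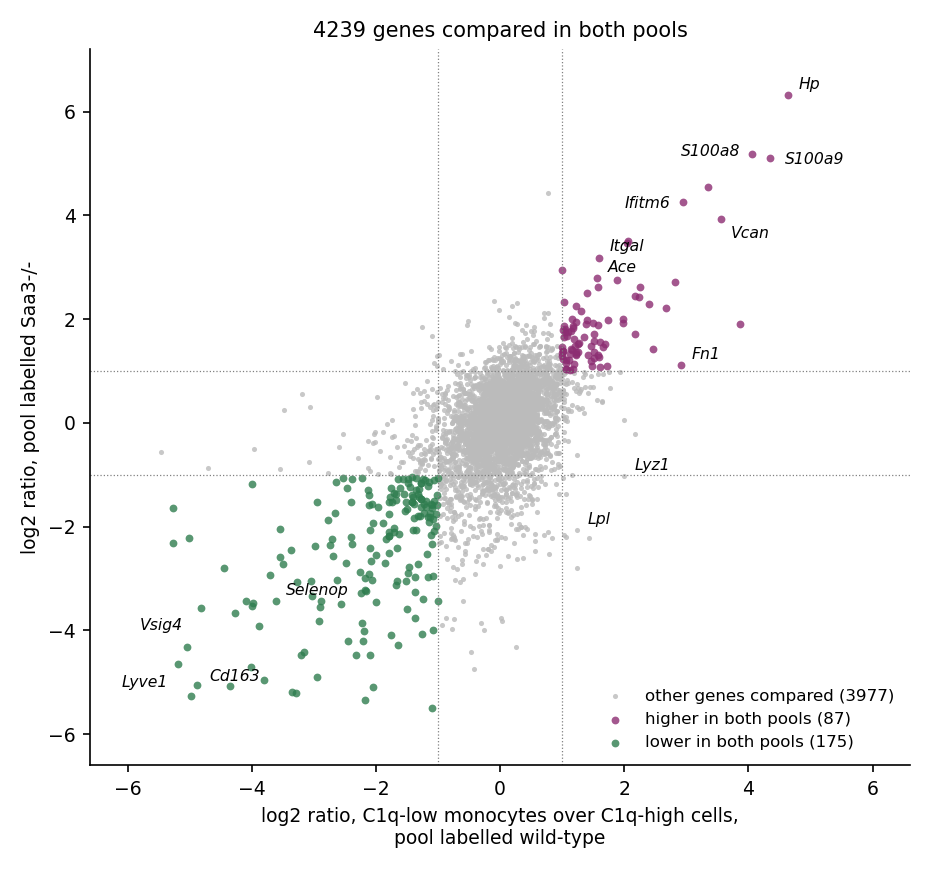
Log2 ratio of summed CPM, C1q-low monocytes over C1q-high cells, in the pool labelled wild-type (horizontal) and the pool labelled Saa3-/- (vertical) for 4239 genes. The 87 genes past 2-fold higher in both pools lie at the upper right, led by Hp, the 175 past 2-fold lower at the lower left, and Lpl and Lyz1 are on opposite sides in the 2 pools.

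Genes of resident macrophages were lower as a body: 18 of 19 compared, the exception being F13a1 (-0.57 and 0.06), with medians of -3.11 and -3.23, or -2.74 and -3.04 with genes at 0 placed at their bound. The scavenger receptor Cd163 gave 3 and 1 molecules in the monocytes against 636 and 371 in the C1q-high cells, log2 ratios of -4.88 (-7.39 to -3.55) and -5.05 (-10.94 to -3.15). The hyaluronan receptor Lyve1 likewise gave 3 and 1 against 784 and 281. Vsig4, a complement receptor of settled macrophages, gave 0 in both pools against 101 and 74, at least 5.47-fold and 3.30-fold lower with 3 counts per pool as the floor. The folate receptor Folr2 gave 10 and 3 molecules, the chemokine Pf4 15 and 6, and Igf1, the growth factor, 9 and 5. Atp6v0d2, a proton pump chain, gave 0 in both pools against 62 and 125, at least 3.36-fold and 5.57-fold lower. The C1q-high cells included lipid-laden cells, which the rule kept out of the monocytes.

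Selenop, which carries selenium out of cells, showed the same at a level where counting error is small. Its 137 and 50 molecules gave 327 (274 to 386) and 341 (253 to 449) CPM against 4008 and 3707 CPM, log2 ratios of -3.61 and -3.43. T cells stood at 397 and 329 CPM. Apoe, the apolipoprotein, stood at 1576 and 2009 CPM against 8219.5 and 10203 CPM, log2 ratios of -2.38 and -2.34, and 618 and 593 CPM in T cells. Of the macrophage identity list 9 of 15 were lower and 0 higher, with medians of -1.86 and -1.81, among them Adgre1 (F4/80, -2.66 and -1.73), the apoptotic-cell receptor Mertk (11 and 0 molecules against 293 and 127) and Ms4a7 (17 and 4 against 1739 and 883). The macrophage transcription factor Maf (-2.69 and -2.57) was lower with them.

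Chemokines were lower in the monocytes for 10 of 16 genes compared and higher for 0, with medians of -1.90 and -2.21, the latter -2.17 at the bound. Ccl8 gave 9 and 2 molecules against 1656 and 220, Ccl12 2 and 0 against 485 and 144, and Ccl7 13 and 1 against 769 and 250. Ccl4 stood at -2.91 and -3.56 and Cxcl16, a lipoprotein receptor as well as a chemokine, at -1.78 and -2.17. Cxcl13, the B cell attractant, gave 9 and 2 molecules against 2266 and 58, and that level in the C1q-high cells itself differed between the pools, at 877 and 52.8 CPM. Receptors for complement fragments were lower too, C5ar1 at -2.11 and -1.40 and C3ar1 at -2.89 and -3.44, as was Il10 with 2 and 2 molecules against 158 and 102.

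Lysosomal and scavenger genes were lower in part. In the list of cathepsins and lysosomal genes 4 of 20 were lower, among them Ctsb (-1.13 and -1.82), Cd63 and Lgmn. Of the scavenger and efferocytosis list 7 of 17 were lower, and Clec4e, a lectin that senses mycobacterial and dead-cell glycolipid, was higher at 2.17 and 1.71. Genes of the MHC class II list did not pass in both pools, 0 of 8, with medians of 0.15 and -1.24. Spi1, which encodes PU.1, stood at 489 and 511 CPM against 414 and 394.

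Between the pools, 2088 genes had at least 50 molecules over the 67 cells. Of these, 61 (2.92%) were at least 2-fold higher in the pool labelled Saa3-/- and 105 (5.03%) at least 2-fold lower, with a median log2 ratio of 0.06 over all genes. Non-classical genes were higher in 6 of 13 compared and lower in 1, with a median of 1.114. MHC class II genes were lower in 4 of 6, with a median of -1.25, chemokines in 4 of 7 (-0.73) and scavenger genes in 4 of 8 (-0.73). Interferon-response genes were higher in 2 of 8, with a median of 0.82.

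These differences were also read within each MHC class II range, and whether the shares of the ranges account for them was not tested. The lower range itself differed in make-up between the pools: 4 of its 18 wild-type-labelled cells and 8 of its 18 others held no Ly6c2. H2-Aa gave 3401 molecules in the pool labelled wild-type and 463 in the pool labelled Saa3-/-, 8109 and 3154 CPM and a log2 ratio of -1.36, but 0.12 (-0.48 to 0.71) among the cells low in MHC class II, a range cut on this gene. Ace stood at 103 (74.2 to 138) and 347 (259 to 457) CPM over all monocytes, a log2 ratio of 1.76 (1.15 to 2.38), and at 0.80 (0.11 to 1.53) in the lower range. Nr4a1 went from 1.29 to 0.49, Itgal from 1.15 to 0.40, Pou2f2, a transcription factor of the non-classical list, from 1.24 to 0.34 and Pglyrp1 from 1.81 to 0.72. The medians of the lists in the lower range were 0.40 for non-classical, -0.03 for interferon-response and 0.12 for MHC class II genes. In the upper range, with 8 cells in the pool labelled Saa3-/-, they were -1.01, 1.48 and -0.47. The interferon-response medians rest on 9 members in the upper range, 8 in the lower and 16 over all monocytes. Their sizes are therefore not like for like.

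Few of the 166 genes could be followed in the lower range, where 718 genes had at least 50 molecules and 11 (1.53%) and 26 (3.62%) passed the fold upwards and downwards. Of the 166, 36 were compared there and 8 passed the same way, 1 of 21 higher genes (Retnlg) and 7 of 15 lower ones. The 7 included Cxcl2, Cd14, Ptgs2, Clec4d and the coagulation factor F10 from the lists, with log2 ratios of -1.03, -1.33, -3.36, -2.12 and -1.13. Ptgs2, the inducible cyclooxygenase, rests on few cells: of its 80 molecules in all monocytes of the pool labelled wild-type 58 lay in 2. Cd14, the co-receptor for lipopolysaccharide, was more evenly spread, with 115 molecules in 13 cells against 38 in 11. Ccl3 (-1.79), Thbs1 (-1.65), Il1rn (-1.16), Eno1 (-1.30) and Itgam (-1.03) passed the fold downwards in that range and not over all monocytes, and the feedback inhibitors Nfkbia (1.09) and Nfkbiz (1.42) and the phosphatase Dusp1 (1.24) did so upwards. Among the cells high in MHC class II, 1240 genes were compared and 49 (3.95%) and 126 (10.2%) passed.

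**Figure D4:**
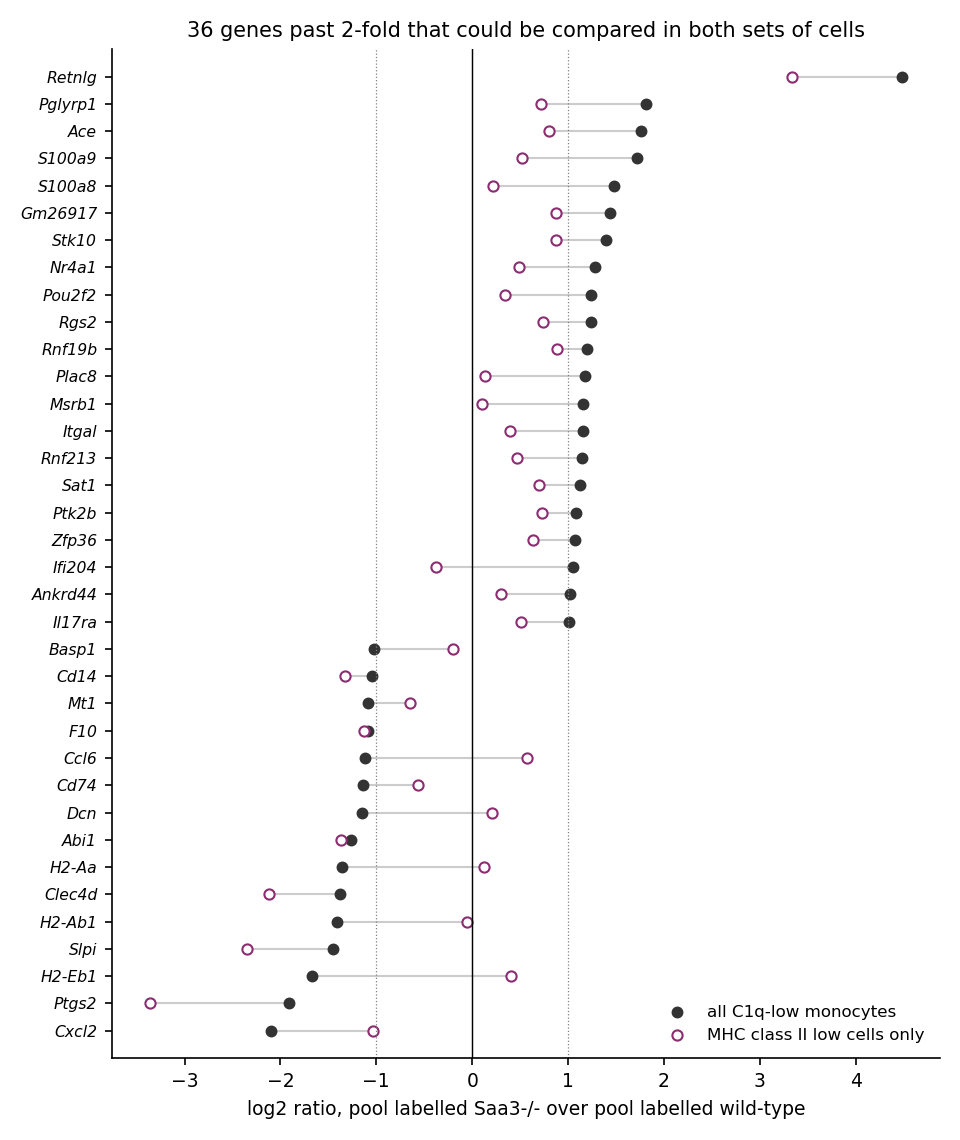
Log2 ratio of summed CPM, pool labelled Saa3-/- over pool labelled wild-type, for the 36 genes past 2-fold over all C1q-low monocytes that had at least 50 molecules in the cells low in MHC class II. Filled circles are all monocytes and open circles the lower range alone: of the 21 genes on the right only Retnlg stays past 1, and of the 15 on the left 7 stay past -1.

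The genes highest in the pool labelled Saa3-/- included 2 that rest on single cells. Retnlg, a resistin-like gene of neutrophils, stood at 4.48, with 112 of 113 molecules in 2 cells, and S100a8 at 1.48, with 71 of 75 in 1. Without the 2 highest cells too few molecules of either are left to compare. By size, the linker histone Hist1h1c (2.31), Pglyrp1 (1.81), the interferon regulator Irf7 (1.78), the phosphatase Dusp16 (1.77), Ace, the non-coding Gm14005 (1.75), the kinase Gsk3a (1.63) and Mylip, a ligase that degrades the LDL receptor (1.44), followed. Irf7 gave 39 and 47 molecules in 20 and 16 cells, 93.0 and 320.2 CPM. Hist1h1c gave 24 and 42 molecules in 16 and 13 cells.

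Several of the lowest genes there were carried by single wild-type-labelled cells. Mcpt4, a mast cell protease, gave 180 molecules, 168 of them in 1 cell, against 1, and Cpa3 and Cma1, also of mast cells, 73 of 84 and 64 of 72 in 1 cell against 1 and 2. Lyz1 gave 1344 molecules, 934 of them in 1 cell high in MHC class II, against 13. Cxcl1, a neutrophil attractant, gave 96 molecules in 12 cells, 24 in the highest, against 2. Exoc4 of the exocyst was spread over 23 cells, with 49 molecules against 2, a log2 ratio of -2.79 (-6.19 to -1.17). Axl, a receptor for apoptotic cells, gave 50 against 3 molecules (-2.34, -4.87 to -0.91), Sdc4, a syndecan, 76 against 5, Cxcl2 508 against 41 (183 in 1 cell) and Lpl, lipoprotein lipase, 466 against 38.

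Of 13 lipid handling genes compared between the pools 3 were lower, Lpl, Lipa and Pltp, and 1 higher, Mylip, with a median of 0.07. Lipa, the lysosomal acid lipase, stood at 434 and 123 CPM (log2 ratio -1.79) and Pltp, the phospholipid transfer protein, at 1025 and 293 CPM (-1.79). In the lower range Pltp stood at 163 and 228 CPM and Lipa, with 40 and 6 molecules, at 362 and 65.0 CPM. Cd209a and Clec10a were higher in the pool labelled Saa3-/-, at 2.66 and 1.51, with 36 of 56 and 20 of 32 molecules in 1 cell, while Mgl2, a neighbour of Clec10a in the same lectin family, was lower at -1.96.

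Markers of other cell types stood beside these results in a few cells. The 7 neutrophil markers summed to 575 and 2146 CPM, with 197 of 241 and 225 of 315 molecules in the highest cell of each pool and 0 of 7 at 0 in either pool, and Ly6g, the defining one, at 2 and 1 molecules. The cells richest in S100a9 held 2716 and 3143 molecules in all. Mast cell markers gave 415 molecules in the pool labelled wild-type, 373 in 1 cell, and 9 in the other. Fibroblast markers gave 420 and 78 molecules, 227 in 1 cell of the pool labelled wild-type. T cell markers stood at 150.2 and 123 CPM against 4694 and 4750 CPM in T cells. Cells with at least 10 of another lineage's markers per 10000 were 5 of 41 and 5 of 26, and the counts of genes without them were 75 and 161 against the C1q-high cells and 52 and 105 between the pools.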

How the data were processed

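Single cells of 2 pools were read as tables of molecule counts per cell and gene, deposited by the authors after the BD Rhapsody pipeline 1.11.1 with GRCm38 and GENCODE 19, per the file headers. The 26189 genes matched between the tables. Genotype was taken from the names of the deposited tables. Of 2401 putative cells, 11 multiplets and 647 undetermined cells are not in the count tables, and no doublet caller was run. The other 4 samples, cultured macrophages, were not analysed here.

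Molecules were summed over the cells of each pool and set, and log2 ratios of CPM (counts per 1000000) were taken with a pseudocount of 0.5 molecules (Python 3.11.15, numpy 2.4.6, pandas 2.3.3, scipy 1.17.1, matplotlib 3.10.9). With 1 pool per genotype no p-value is given: a gene is called when its 2 levels differ by 2-fold or more (log2 of 1) and it has at least 50 molecules (20 between the ranges, 50 within one). Exact Poisson and Clopper-Pearson intervals at 95% cover counting error only. Against the C1q-high cells the 15 highest and 15 lowest genes by the smaller ratio could be named, between pools the 10 highest and lowest that kept the fold without the 2 highest cells, together with list members. On simulated counts 182 of 185 genes set to differ by a log2 of 2 were recovered between pools. Of 1870 unchanged genes 34 passed the fold. Against the C1q-high cells the numbers were 197 of 200, and 4 of 3893. Recovery at a smaller fold, or of genes with most molecules in 1 or 2 cells, was not tested. The simulated cells of each set shared a single mean profile, without spread between cells beyond counting error. The numbers of unchanged genes past the fold are therefore no rate of false calls in these data. Shared 50-base stretches were counted in GENCODE 21 transcripts, and promoters were taken from RefSeq. Members and gene lists were chosen with earlier results of these data known, and the MHC class II ranges were added after seeing the data. Some genes and one detail of the treatment are not reported here.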

Additional observations from a re-analysis of the deposited data

Results flagged for a closer look

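For 14 genes the ratio of C1q-low monocytes over C1q-high cells passed 2-fold upwards in 1 pool and downwards in the other. The difference between the pools was not tested, and each pool is 1 sample. The ratios are on the log2 scale, first in the pool labelled wild-type and then in the pool labelled Saa3-/-.

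Interferon-induced genes were among those lower in the first pool and higher in the second: Gbp2 at -1.09 and 1.67, Isg15 at -1.07 and 1.15, and Oas1a at -1.25 and 1.84. Their monocyte molecules were few, at 19 and 15, 14 and 13, and 6 and 17. Irak3, an inhibitor of Toll-like receptor signalling, stood at -1.01 and 1.28, and the non-coding Snhg9 at -1.02 and 1.103.

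Lpl stood at 1.25 and -2.07, with 466 and 38 molecules, and Lyz1 at 2.00 and -1.03, with 1344 and 13, of which 934 lay in 1 cell. The C1q-high cells themselves differed between the pools, at 469 and 1104 CPM for Lpl and 801 and 188 CPM for Lyz1. Ptgs2 stood at 1.16 and -1.004, with 80 and 7 molecules. The others higher in the first pool rest on 1 to 5 molecules in the second: H2-DMb2, a peptide-loading chain that shares stretches with H2-DMb1, at 1.43 and -2.23, Gpalpp1 at 1.07 and -2.20, Prelid3b at 1.04 and -2.17, St8sia4 at 1.02 and -1.06, Tbc1d4 at 1.23 and -2.79, and Usp36 at 1.06 and -1.37.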

How the results depend on the processing

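No paired analysis was possible because each genotype is 1 pool, and for the same reason no replicate could be left out. Counts below are genes higher and lower against the C1q-high cells (87 and 175 as reported), then higher and lower between pools (61 and 105), and causes were not tested. Asking for 20 molecules gave 175, 296, 292 and 382, and 100 gave 44, 113, 15 and 43. A log2 ratio of 1.5 gave 28, 93, 11 and 32. Against the C1q-high cells without lipid-laden cells, 74 of 3144 genes compared were higher and 148 lower. Of these, 62 and 134 were among those reported. A pseudocount of 5 gave 83 lower and 45 lower, and thinning 56 lower between pools. Without the 2 highest cells per gene the counts were 57 and 376, and 215 lower between pools. A monocyte sum of at least 20 gave 21 and 32 between pools, and 8.87% of Lyz2-high cells in the pool labelled wild-type. The cells low in MHC class II alone gave 191, 278, 11 and 26, and those high in it 40 higher against the C1q-high cells. The share of higher among called genes, 33.2% and 36.7% as reported, was 60.5% and 63.4% with a pseudocount of 5, 26.5% and 29.5% with median scaling, and 13.2% and 17.6% without the 2 highest cells.

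Of 2712 values of single genes under alternatives, 2376 stayed within the counting interval, 304 moved and 32 turned sign. A mitochondrial limit of 15% and a minimum of 2000 molecules per cell left every monocyte in. Each of these settings gave 172 of 172 values within the interval, which says little about stability. Against the C1q-high cells, S100a9 turned to -0.00854 and -0.56 with Lyz2 of at least 60, to -0.40 and -0.62 with a monocyte sum of at least 20, to -0.88 (second pool) with the lipid-laden sum under 5, to -0.72 and -2.36 without cells with another lineage's markers, to -0.58 and -2.28 without the 2 highest cells, and to -1.22 (second pool) in the cells high in MHC class II. S100a8 turned to -0.25 with Lyz2 of at least 60, to -0.019 (second pool) with the monocyte sum, to -0.40 without cells with another lineage's markers, to -0.42 without the 2 highest cells and to -0.45 in the cells high in MHC class II, and between pools to -0.0049 with the monocyte sum and -2.51 with the lipid-laden sum. Between pools Cma1 turned to 0.020 with Lyz2 of at least 60 and Ear2 to 0.23 with the monocyte sum. In the cells low in MHC class II, Lyz1 stood at 0.079 between pools, Lpl at 0.88, Ear2 at 1.19, H2-Aa at 0.12, H2-Eb1 at 0.40, Mgl2 at 0.75, Ccl6 at 0.58, Ifi204 at -0.38 and Pltp at 0.48. In the cells high in MHC class II, Vcan (-1.16), Adgre4 (-1.50) and Ear2 (-2.63) turned in the second pool against the C1q-high cells, and Itgal (-0.46) between pools.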
